A study of Mus musculus with 12 samples.

Results

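The cytosolic heat shock chaperones described here are 10 genes of the deposited count table, chosen by symbol: Hspa1a, Hspa1b, Hspa8, Hsph1, Dnajb1, Bag3, Hspb1, Hspb8, Cryab and Hsp90aa1. The table holds 54100 genes, and all 10 were among the 8161 with enough reads to be tested. They were followed through 12 libraries of Pdgfra-positive mesenchymal progenitors, also called fibro-adipogenic progenitors, fibroblast-like cells found between muscle fibres. The cells were sorted from the mouse plantaris, a calf muscle, 1000 cells to a tube.

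HSP70 proteins hold unfolded stretches of other proteins in a cycle driven by ATP. J-domain proteins such as the product of Dnajb1 bring them their clients, and nucleotide exchange factors such as HSP110 and BAG3 make them let go. Small heat shock proteins keep unfolding proteins from clumping, and in muscle BAG3 joins them to HSP70 and sends mechanically damaged proteins such as filamin to autophagy. The stress-inducible members are switched on by heat shock factor 1, which binds repeats of a short inverted motif in their promoters.

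The 4 groups held 3 libraries each. Overloaded and sham-operated muscles were taken from cdKO mice, which carried Pdgfra-CreERT2 with floxed alleles of both Yap1 and Taz (gene symbol Wwtr1), and from control mice, for which the labels name Pdgfra-CreERT2 and no floxed allele. Both genotypes thus share the driver, a Cre that acts in Pdgfra-expressing cells and depends on a ligand of the oestrogen receptor. YAP and TAZ are transcriptional co-activators of the Hippo pathway that respond to mechanical load. The sources used here do not state age, sex, Cre induction, the interval after surgery or whether animals were pooled. P-values therefore measure how far these libraries scatter, and that scatter may be technical.

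Libraries held 336437 to 1564581 counts, and the 10 genes drew between 53 and 834 counts in each. Values are CPM, counts per 1000000 of the library total after scaling by edgeR's TMM factors, with no correction for gene length, so levels are compared within a gene and not between genes. The 10 genes together made up 0.228% to 0.316% of the counts in cdKO overload libraries, 0.194% to 0.296% in control overload, 0.251% to 0.385% in cdKO sham and 0.319% to 0.385% in control sham. Over all genes, cdKO overload replicate 2 and control overload replicate 1 lay nearer to the sham libraries than the other overloaded libraries did on the first principal component, which held 46.4% of the variance. Control overload replicates 2 and 3 had less Y-linked RNA (71.6 and 87.5 per 1000000 counts, here without TMM scaling) than the other libraries (124 to 315). Wwtr1 was lower in cdKO than in control under overload (log2 difference -2.78 ± 0.28, SE, edgeR quasi-likelihood test, adjusted p = 1.83e-06), and Yap1 did not pass (log2 difference -0.85 ± 0.32, adjusted p = 0.586). Reads from 3′ ends do not check a deletion that lies elsewhere in a gene. Progenitor markers such as Pdgfra, Dcn and Col3a1 were detected in every library. The sum of 10 such markers was 73650 to 80690 CPM in cdKO overload and 80270 to 84940 CPM in cdKO sham, which overlapped, and 49550 to 72020 CPM in control overload and 72270 to 91160 CPM in control sham, which did not. Mitochondrial genes took 8.60% to 10.1% of counts in cdKO overload and 11.6% to 13.98% in cdKO sham, without overlap, and 8.44% to 11.6% in control overload and 7.39% to 10.2% in control sham. Their part in the chaperone values was not tested.

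Promoter sequences show what the genes share in their DNA. The RefSeq table of promoter windows (build GRCm38.p6, 250 bases before to 50 after each start site) has entries for 7 of the 10 genes. Hspa8, Cryab and Hsp90aa1 have none in it. The letters searched were an inverted pair of the heat shock element's unit, GAANNTTC or TTCNNGAA. Both read the same on either strand, and copies of the 2 forms can overlap. Of the 7 genes 6 held at least 1 copy, against 16.97% of 27025 genes and 15.1% of 32851 windows in the table. Hspa1a and Hspa1b are 2 of the 6, and their windows match at 296 of 300 bases, so they are not separate cases. The set was chosen as heat shock genes, so these shares describe it and do not test it. Dnajb1 had no copy in either of its 2 windows. The copies are in capitals in the stretches below, 5′ to 3′ on the gene's strand, and positions count from the start site at 1.
Hspa1a, chr17:34972227-34972286, minus strand: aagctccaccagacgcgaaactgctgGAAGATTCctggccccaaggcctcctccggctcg
Hspa1b, chr17:34959309-34959368, minus strand: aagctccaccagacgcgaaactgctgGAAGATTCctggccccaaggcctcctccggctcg
Hspb1, chr5:135887776-135887855, plus strand: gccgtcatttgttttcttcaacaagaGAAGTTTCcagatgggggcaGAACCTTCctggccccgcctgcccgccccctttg
Hspb8, chr5:116422844-116422873, minus strand: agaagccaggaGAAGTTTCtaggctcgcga
Hsph1, chr5:149636351-149636380, minus strand: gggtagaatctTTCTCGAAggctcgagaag
Hsph1, chr5:149636287-149636308, minus strand: gctgcagaTTCTGGAAAGTTCt
Bag3, chr7:128523614-128523632, plus strand: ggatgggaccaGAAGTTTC

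The stretches of Hspa1a and Hspa1b are the same base for base, with the copy at -104 to -97. Hspb1 held 2 copies upstream of its start site, at -117 to -110 and -97 to -90. Copies in Hspb8 (3 to 10) and Bag3 (43 to 50) lay past the start site. Hsph1 has 2 start sites in the table. From the upstream one it held a copy at -33 to -26 and an overlapping pair at 37 to 44 and 42 to 49, and from the other the same copies lay at -54 to -47, 16 to 23 and 21 to 28. That pair makes 3 successive units, found in 0.603% of all windows. A match of letters is not a measured binding site.

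Overload went with lower levels of several of these chaperones. In cdKO cells 1 of the 10 genes, Dnajb1, fell and 0 rose, where 6.68% of all genes tested fell and 6.37% rose. In control cells 5 of the 10 fell (Cryab, Dnajb1, Hspa1a, Bag3 and Hspa1b) and 0 rose, where 11.0% of all genes fell and 10.6% rose. The 10 genes were chosen with earlier results of these data known, so the shares of all genes describe them and do not test them. The median log2 change in cdKO was -0.35 for the 10 genes and -0.02 for all genes, and in control it was -0.92 for the 10 genes and -0.05 for all genes. At an unadjusted p under 0.05 there were 2 of the 10 in cdKO (27.2% of all genes) and 6 of the 10 in control (34.6% of all genes). A gene fell or rose where its Benjamini-Hochberg adjusted p in edgeR's quasi-likelihood test was under 0.05 over 8161 genes. In these bulk samples fewer cells expressing a gene and less RNA per cell cannot be told apart.

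**Figure D1:**
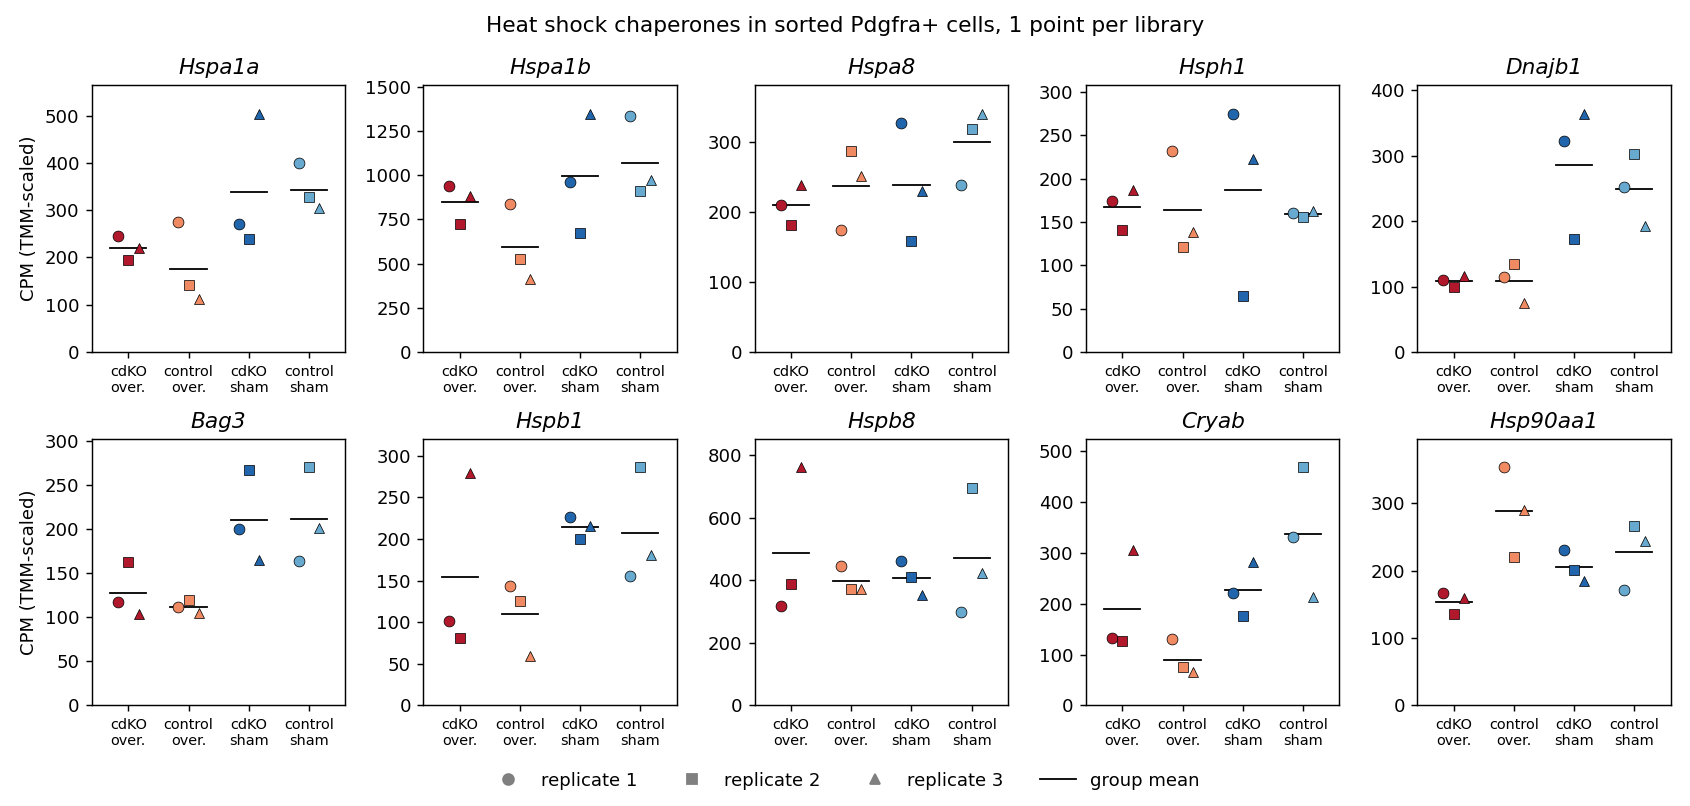
Levels of the 10 chaperone genes in CPM (vertical axes, starting at 0), with 1 point per library, marked by replicate number, and a line at each group mean (n = 3). All 6 overloaded libraries lie below all 6 sham libraries for Dnajb1 and, by a narrow gap (163 and 164 CPM), for Bag3. The share of all genes so placed was not counted.

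Dnajb1 encodes the main stress-inducible J-domain partner of cytosolic HSP70 and lies on chromosome 8 (83608193 to 83612653, plus strand, GRCm38). It measured 110, 98.9 and 116 CPM in cdKO overload and 322, 172 and 365 CPM in cdKO sham. Control overload libraries had 115, 134 and 75.0 CPM, and control sham libraries had 253, 302 and 193 CPM. Every overloaded library was below every sham library, whichever the genotype. The share of all genes so placed across both genotypes was not counted. The log2 change was -1.41 ± 0.28 in cdKO (SE, edgeR, adjusted p = 0.00160) and -1.24 ± 0.28 in control (adjusted p = 0.00252). Dnajb1 passed in all 17 alternative fits in both genotypes.

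Hspa1a and Hspa1b are the stress-inducible HSP70 genes, neighbours on chromosome 17 (34969190 to 34972156 and 34956436 to 34959238, both on the minus strand). Hspa1a had 245, 195 and 219 CPM in cdKO overload and 272, 238 and 505 CPM in cdKO sham. It had 276, 141 and 112 CPM in control overload and 400.2, 327 and 304 CPM in control sham. The control groups did not overlap, and the cdKO groups did. Hspa1b had 939, 726 and 882 CPM in cdKO overload and 962, 670.1 and 1349 CPM in cdKO sham. In control it had 834, 528 and 414 CPM under overload and 1335, 909 and 970.2 CPM in sham, again with no overlap. In cdKO the log2 change was -0.64 ± 0.31 for Hspa1a (SE, edgeR adjusted p = 0.192) and -0.24 ± 0.29 for Hspa1b (adjusted p = 0.648), so neither passed. Over 16 alternatives the cdKO change of Hspa1a ran from -0.88 to -0.22. In control it was -1.002 ± 0.32 for Hspa1a (adjusted p = 0.0257) and -0.88 ± 0.30 for Hspa1b (adjusted p = 0.0337), and both fell.

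The HSP70 pair are near-identical copies. Their coding sequences were identical at 1918 of 1929 aligned bases (99.4%) and their promoter windows at 296 of 300 (98.7%), whereas the 3′ UTRs, where most 3′-end reads fall, matched at 369 of 814 aligned positions (45.3%). Reads of shared sequence may have been split or lost in counting, so the levels of each copy are uncertain. With the counts of both summed, the log2 change was -0.34 ± 0.30 in cdKO (SE, edgeR adjusted p = 0.511) and -0.90 ± 0.30 in control (adjusted p = 0.0320). Both control calls were lost without control overload replicate 2 or 3, without any of the 3 control sham replicates and with no filter on low counts, at adjusted p of 0.0510 to 0.186. In those fits the change of Hspa1a was between -1.04 and -0.74 and that of Hspa1b between -0.96 and -0.66. Without control overload replicate 1, the overloaded control library nearest to sham, the changes were -1.43 for Hspa1a and -1.18 for Hspa1b, and both passed.

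Hspa8, the constitutive HSP70 (HSC70), and Hsph1, an HSP110 that exchanges the nucleotide of HSP70, did not pass in either genotype. Hspa8 ranged from 181 to 238 CPM in cdKO overload and 159 to 327 CPM in cdKO sham, and from 174 to 287 CPM in control overload and 238 to 340 CPM in control sham. Its log2 change was -0.20 ± 0.27 in cdKO and -0.35 ± 0.27 in control (SE). Hsph1 ranged from 141 to 187 CPM in cdKO overload and 64.0 to 275 CPM in cdKO sham, with replicate 2 the lowest. It ranged from 121 to 232 CPM in control overload and 156 to 163 CPM in control sham. Its change was -0.16 ± 0.39 in cdKO and 0.01 ± 0.40 in control, an interval wide enough to hold changes in either direction.

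Bag3, the co-chaperone that ties HSP70 to small heat shock proteins, lies on chromosome 7 (128523616 to 128546981, plus strand). It had 117, 163 and 104 CPM in cdKO overload and 201, 267 and 165 CPM in cdKO sham. Control overload libraries had 111, 120 and 105 CPM, and control sham libraries had 164, 271 and 202 CPM. As for Dnajb1, all 6 overloaded libraries were below all 6 sham libraries, though the highest overloaded and the lowest sham library were 163 and 164 CPM. How many of all genes were so placed across both genotypes was not counted. Within a genotype it was 14.2% in cdKO and 18.4% in control. The log2 change was -0.74 ± 0.25 in cdKO (SE, edgeR adjusted p = 0.0508), which did not pass, and -0.95 ± 0.25 in control (adjusted p = 0.00841), which did. In cdKO it passed in 7 of 17 alternative fits. In control the call held in 15 of 17 alternative fits and was lost without control sham replicate 2 (-0.69, adjusted p = 0.102) and with no filter on low counts (adjusted p = 0.147). Over the 17 its adjusted p ran from 0.00293 to 0.147.

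Cryab, which encodes the small heat shock protein alpha-B crystallin, had the largest control change of the 10 genes. In cdKO it had 133, 127 and 306 CPM under overload and 222, 175 and 282 CPM in sham, with replicate 3 of the overload group above all 3 sham libraries. In control it had 131, 74.7 and 64.9 CPM under overload and 331, 468 and 214 CPM in sham, with no overlap. Its log2 change was -0.27 ± 0.35 in cdKO (SE, edgeR adjusted p = 0.691) and -1.96 ± 0.37 in control (adjusted p = 9.4e-04). The control call held in all 17 alternative fits, with values from -2.31 to -1.62. In cdKO it passed in 0 of 17, with values from -0.80 to -0.0057. Cryab (chromosome 9, 50751325 to 50756636, plus strand) overlaps Hspb2 on the minus strand (50751078 to 50752354), and the strand setting of the counting is not stated. Hspb2 had 0 to 1 counts per library.

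Hspb1 and Hspb8 encode the other small heat shock proteins of the set, HSP27 (HSP25 in mice) and HSP22, the binding partner of BAG3. Hspb1 had 101, 81.6 and 279 CPM in cdKO overload and 227, 200.0 and 216 CPM in cdKO sham. Its log2 change of -0.48 ± 0.40 (SE, edgeR adjusted p = 0.485) did not pass, and without cdKO overload replicate 3 it was -1.23 and passed (adjusted p = 0.0299, in a range of 0.0299 to 0.864 over 17 alternatives). Hspb1 had 144, 125 and 59.3 CPM in control overload and 156, 286 and 181 CPM in control sham. The control groups did not overlap, but the change of -0.97 ± 0.41 did not pass (adjusted p = 0.107). It passed in 3 of 17 alternative fits, and over the 17 its adjusted p ran from 0.0103 to 0.390. Hspb8 had 317, 387 and 761 CPM in cdKO overload and 462, 409 and 352 CPM in cdKO sham, and 373 to 445 CPM in control overload and 297 to 694 CPM in control sham. It did not pass in either genotype (0.25 ± 0.30 in cdKO and -0.28 ± 0.31 in control). Replicate 3 of cdKO overload was the highest of its group for 6 of the 10 genes (Hspb1, Hspb8, Cryab, Hspa8, Hsph1 and Dnajb1). Its lead over replicate 1 was small for Dnajb1 (116 against 110 CPM) and Hsph1 (187 against 174 CPM). The share of all genes highest in that library was not counted.

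Hsp90aa1, the stress-inducible cytosolic HSP90, had fitted changes of opposite sign in the genotypes, and neither passed. It had 167, 136 and 159 CPM in cdKO overload and 230.2, 201 and 185 CPM in cdKO sham. In control it had 353, 220.4 and 290.0 CPM under overload and 171, 267 and 244 CPM in sham. Overloaded and sham libraries did not overlap in cdKO and did in control. The log2 change was -0.43 ± 0.25 in cdKO (SE, edgeR adjusted p = 0.273) and 0.31 ± 0.24 in control (adjusted p = 0.380).

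**Figure D2:**
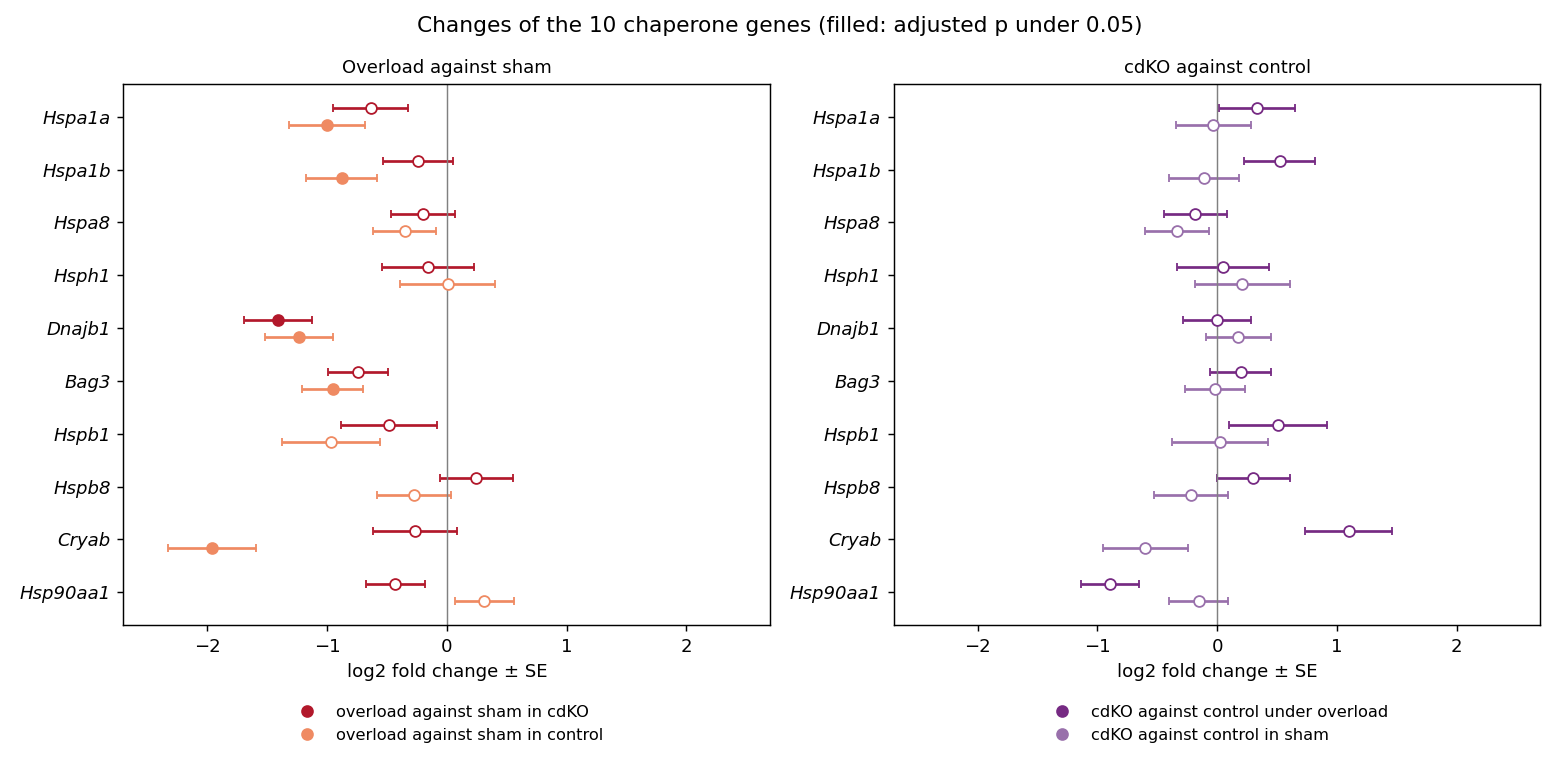
Fitted log2 fold changes with SE (horizontal axes) of the 10 genes for overload against sham in each genotype (left) and cdKO against control under each load (right), with filled points at adjusted p under 0.05. Filled points are all on the left, 1 in cdKO and 5 in control, and all are below 0.

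Counting libraries in place of the fit gave 3 of the 10 genes (Dnajb1, Bag3 and Hsp90aa1) with every overloaded cdKO library below every cdKO sham library, a state found in 14.2% of all genes. In control 6 of the 10 were so placed (the 5 that fell, and Hspb1), against 18.4% of all genes. The number of the 10 genes that passed in cdKO was 2 with DESeq2 (925 of all genes), 2 with limma voom (1171), and 1 or 2 with a library left out (423 to 1284), with Dnajb1 in each, beside 1065 of all genes in the reported fit. The number in control was 5 with DESeq2 (1555 of all genes), 6 with limma voom (2301), 2 with no filter on low counts (1383) and 2 to 5 with a library left out (1060 to 2508), with Cryab and Dnajb1 in each, beside 1768 of all genes in the reported fit. The lowest number, 2, came without control sham replicate 2, and 3 passed without replicate 2 or 3 of control overload or replicate 1 or 3 of control sham. Without the overloaded libraries nearest to sham, 2 passed in cdKO and 6 in control, and the number of all genes that passed was higher too, 1583 in cdKO and 2552 in control.

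**Figure D3:**
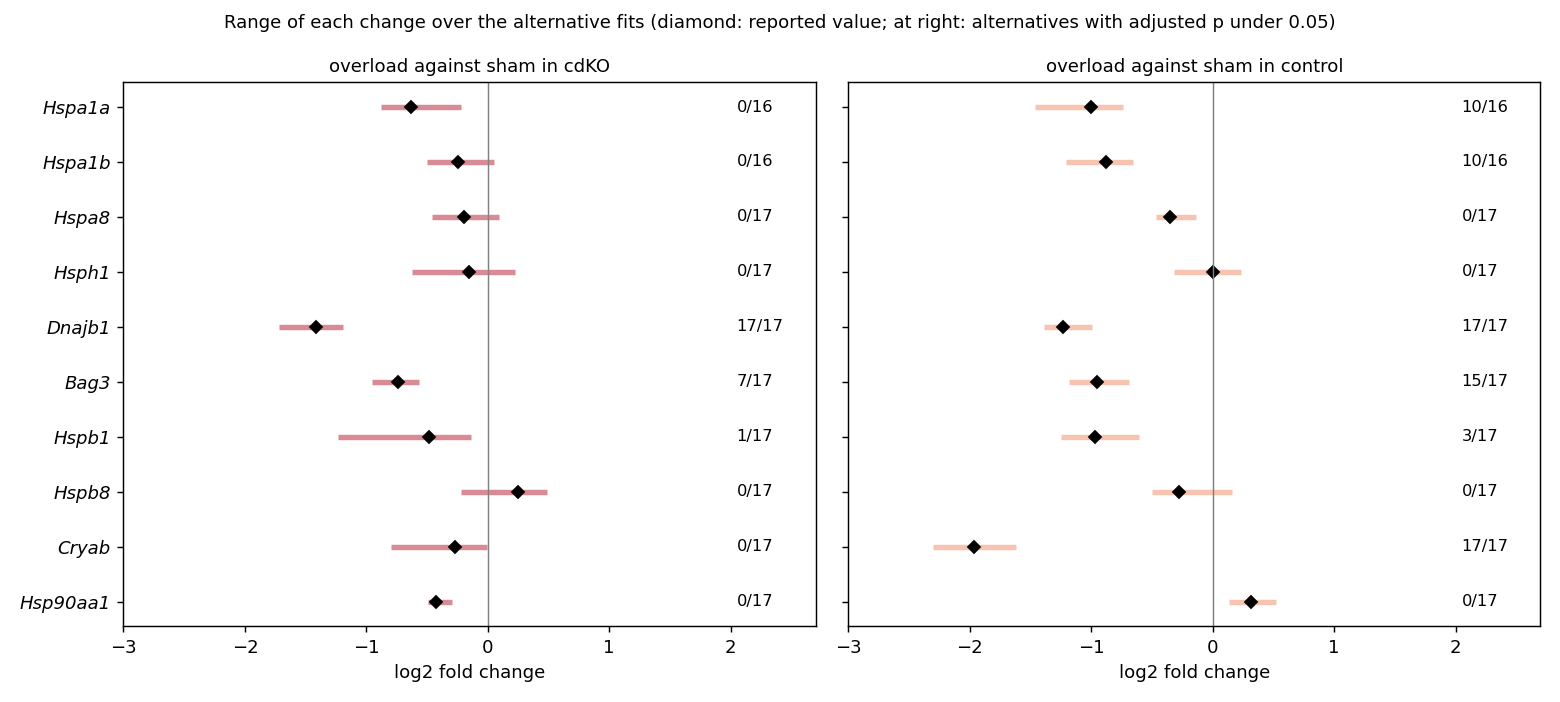
Range of each gene's overload log2 change (bars, horizontal axes) over the alternative fits, with the reported value as a diamond and, at the right of each panel, how many alternatives passed at an adjusted p of 0.05. Dnajb1 stays below 0 and passes in every alternative in both genotypes, whereas Cryab passes in 0 of 17 alternatives in cdKO and in all 17 in control.

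Markers of other cell types were read in the same libraries. Of 15 myofibre markers, Ttn had 10 to 55 counts per library, Tnnt3 0 to 15 and Neb 1 to 13. Tnnc2 was at 0 in every library, Acta1 had 0 to 4 counts and Ckm 0 to 3. Cryab had 58 to 358. The 15 summed to 50.8 to 101 CPM in cdKO overload, 13.9 to 106.5 CPM in control overload, 60.01 to 167 CPM in cdKO sham and 87.6 to 139 CPM in control sham. The 8 endothelial markers summed to 35.2 to 69.3 CPM in cdKO overload, 19.6 to 140.4 CPM in control overload, 88.3 to 246 CPM in cdKO sham and 124 to 234 CPM in control sham, and no endothelial marker was at 0 in a whole group. The 8 pericyte and smooth muscle markers summed to 85.4 to 103 CPM in cdKO overload, 79.5 to 153 CPM in control overload, 131.5 to 198 CPM in cdKO sham and 143 to 150.4 CPM in control sham. Over all libraries the 8 macrophage and myeloid markers summed to 6.97 to 53.3 CPM, the 6 muscle stem cell markers to 30.8 to 60.5 CPM and the 5 Schwann cell markers to 1.27 to 27.4 CPM. The 5 erythroid markers reached 263 CPM in control overload replicate 1 and 120.3 CPM in cdKO sham, and were at most 1.08 CPM in cdKO overload and 4.21 CPM in control sham. The part of these cells in the chaperone values was not tested.

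Immediate early genes, which respond within minutes to many stimuli and to tissue dissociation, held many that fell under overload. Of 19 such genes 10 fell, 1 rose and 8 did not pass in cdKO (median log2 change -1.09), where 6.68% of all genes fell. In control 14 fell, 1 rose and 4 did not pass (median -1.14), where 11.0% of all genes fell. The gene that rose was Ier3 in both genotypes. Dusp1, a phosphatase of MAP kinases, changed by -1.33 ± 0.25 in cdKO (SE, edgeR adjusted p = 9.54e-04) and -1.94 ± 0.26 in control (adjusted p = 9.58e-06). Zfp36, which encodes a protein that destabilises mRNAs, changed by -1.37 ± 0.29 in cdKO and -1.97 ± 0.29 in control. The 19 summed to 5948 to 9217 CPM in cdKO overload, 6350 to 7522 CPM in control overload, 12390 to 16920 CPM in cdKO sham and 11740 to 15030 CPM in control sham, so overloaded and sham libraries did not overlap. Whether handling of the tissue bears on the chaperone values was not tested.

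Genotype made no difference that passed among the 10 genes. Under overload 0 of 10 passed between cdKO and control (0.0368% of all genes did, 3 of 8161), by edgeR, DESeq2 and limma voom alike. At an unadjusted p under 0.05 there were 2 of the 10, Hsp90aa1 and Cryab, and 6.97% of all genes. Hsp90aa1 was lower in each cdKO overload library (136 to 167 CPM) than in each control overload library (220.4 to 353 CPM). Its log2 difference was -0.90 ± 0.24 (SE, edgeR adjusted p = 0.304). The share of all genes so separated between genotypes, under either load, was not counted. Cryab differed by 1.10 ± 0.37 (adjusted p = 0.501) with overlapping groups, 127 to 306 CPM in cdKO overload and 64.9 to 131 CPM in control overload. Over 17 alternatives its difference ran from 0.56 to 1.67, with adjusted p from 0.0526 to 0.999. The differences of the other 8 lay between -0.18 (Hspa8) and 0.52 (Hspa1b).

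In sham muscle 0 of 10 passed between cdKO and control (0.0123% of all genes, 1 of 8161), and 0 had an unadjusted p under 0.05, against 4.09% of all genes. DESeq2 and limma voom also called 0 of the 10. Differences ran from -0.60 ± 0.35 for Cryab to 0.21 ± 0.40 for Hsph1 (log2, SE), and the cdKO and control libraries overlapped for all 10 genes.

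The difference between the genotypes in the overload change was tested as an interaction, and 0 of 10 genes passed, as did 0 of all genes (0%) with edgeR, 1 with DESeq2 and 0 with limma voom. At an unadjusted p under 0.05 there were 2 of the 10, Cryab and Hsp90aa1, and 5.23% of all genes, and DESeq2 and limma voom called 0 of the 10. Cryab had the largest interaction of the 10, 1.70 ± 0.51 on the log2 scale (SE, edgeR adjusted p = 0.645), from a cdKO change of -0.27 and a control change of -1.96. Over 22 alternatives it lay between 1.15 and 2.27, with adjusted p from 0.0653 to 0.999. Hsp90aa1 had -0.74 ± 0.35 (adjusted p = 0.931). That 1 gene passed in cdKO and 5 in control therefore does not show that the response differed.

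Among other chaperone families, several genes of the cytosolic chaperonin rose under overload. The TRiC chaperonin, which folds actin and tubulin, and prefoldin, which delivers them, had 5 genes that rose and 0 that fell of 14 in cdKO, where 6.37% of all genes rose, and 10 that rose and 0 that fell of 14 in control, where 10.6% of all genes rose. The other 9 did not pass in cdKO, nor did the other 4 in control. Cct6a, a TRiC subunit, averaged 364 CPM in cdKO overload and 197 CPM in cdKO sham, and 496 CPM in control overload and 158 CPM in control sham. Its log2 change was 0.88 ± 0.28 in cdKO (SE, edgeR adjusted p = 0.0362) and 1.61 ± 0.28 in control (adjusted p = 2.44e-04). Pfdn4, Cct5, Cct2 and Cct8 rose in both genotypes as well, and Cct4 (1.31 ± 0.27), Cct7, Cct3, Tcp1 and Pfdn6 passed in control but not in cdKO.

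Mitochondrial chaperones had 2 genes that rose of 5 tested in cdKO (6.37% of all genes) and 3 of 5 in control (10.6% of all genes), and 0 that fell. Hspe1, the co-chaperonin HSP10, rose by 1.54 ± 0.28 in cdKO and 1.50 ± 0.28 in control (log2, SE). In control Hspa9, the mitochondrial HSP70, rose by 1.15 ± 0.24, and Hspd1, the chaperonin HSP60, by 1.46 ± 0.38. Grpel1, the nucleotide exchange factor of that HSP70, rose by 1.23 ± 0.30 in cdKO.

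Of 8 chaperone genes of the endoplasmic reticulum 3 rose in cdKO and 6 in control, and 0 fell, where 6.37% of all genes rose in cdKO and 10.6% in control. Serpinh1, the collagen chaperone HSP47, averaged 1107 CPM in cdKO overload and 525 CPM in cdKO sham, and 1344 CPM in control overload and 492 CPM in control sham. It rose by 1.06 ± 0.29 in cdKO and 1.42 ± 0.29 in control (log2, SE). Hyou1, the HSP110 of this compartment, rose by 1.86 ± 0.33 in cdKO and 1.06 ± 0.33 in control, and Dnajb11, a J-domain protein there, by 1.16 ± 0.30 in cdKO and 1.64 ± 0.32 in control. In control Hsp90b1, the HSP90 of this compartment, rose by 1.45 ± 0.33, and Hspa5, the HSP70 known as BiP, by 0.80 ± 0.24.

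Cytosolic relatives outside the set had calls in both directions. For each list below, the shares over all genes were 6.68% that fell and 6.37% that rose in cdKO. They were 11.0% that fell and 10.6% that rose in control. Among 6 tested HSP70 and HSP110 relatives, Hspa2, best known from the testis, fell in both genotypes (-2.25 ± 0.48 in cdKO and -1.30 ± 0.47 in control, log2, SE), and Hspa4, an HSP110, rose by 0.93 ± 0.27 in control. Of 15 HSP90 genes and co-chaperones 1 rose in cdKO and 2 in control, and 0 fell, shares near those over all genes (6.37% and 10.6% rose). Cacybp rose in both genotypes (0.83 ± 0.28 in cdKO and 1.16 ± 0.29 in control), and Ppid, a cyclophilin that binds HSP90, rose in control (0.93 ± 0.28). Among 10 J-domain genes of the cytosol, Dnaja1 fell in cdKO (-0.75 ± 0.25), while Dnajb4 fell (-1.003 ± 0.28) and Dnajc2, which works at the ribosome, rose (1.37 ± 0.33) in control. Of 6 BAG-family genes and other exchange factors, Bag1 alone passed and rose, by 1.22 ± 0.26 in cdKO and 0.85 ± 0.26 in control. Of 7 further genes listed with the small heat shock proteins only Hspb11 had enough reads to test, and it did not pass. That 1 gene does not describe the family.

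**Figure D4:**
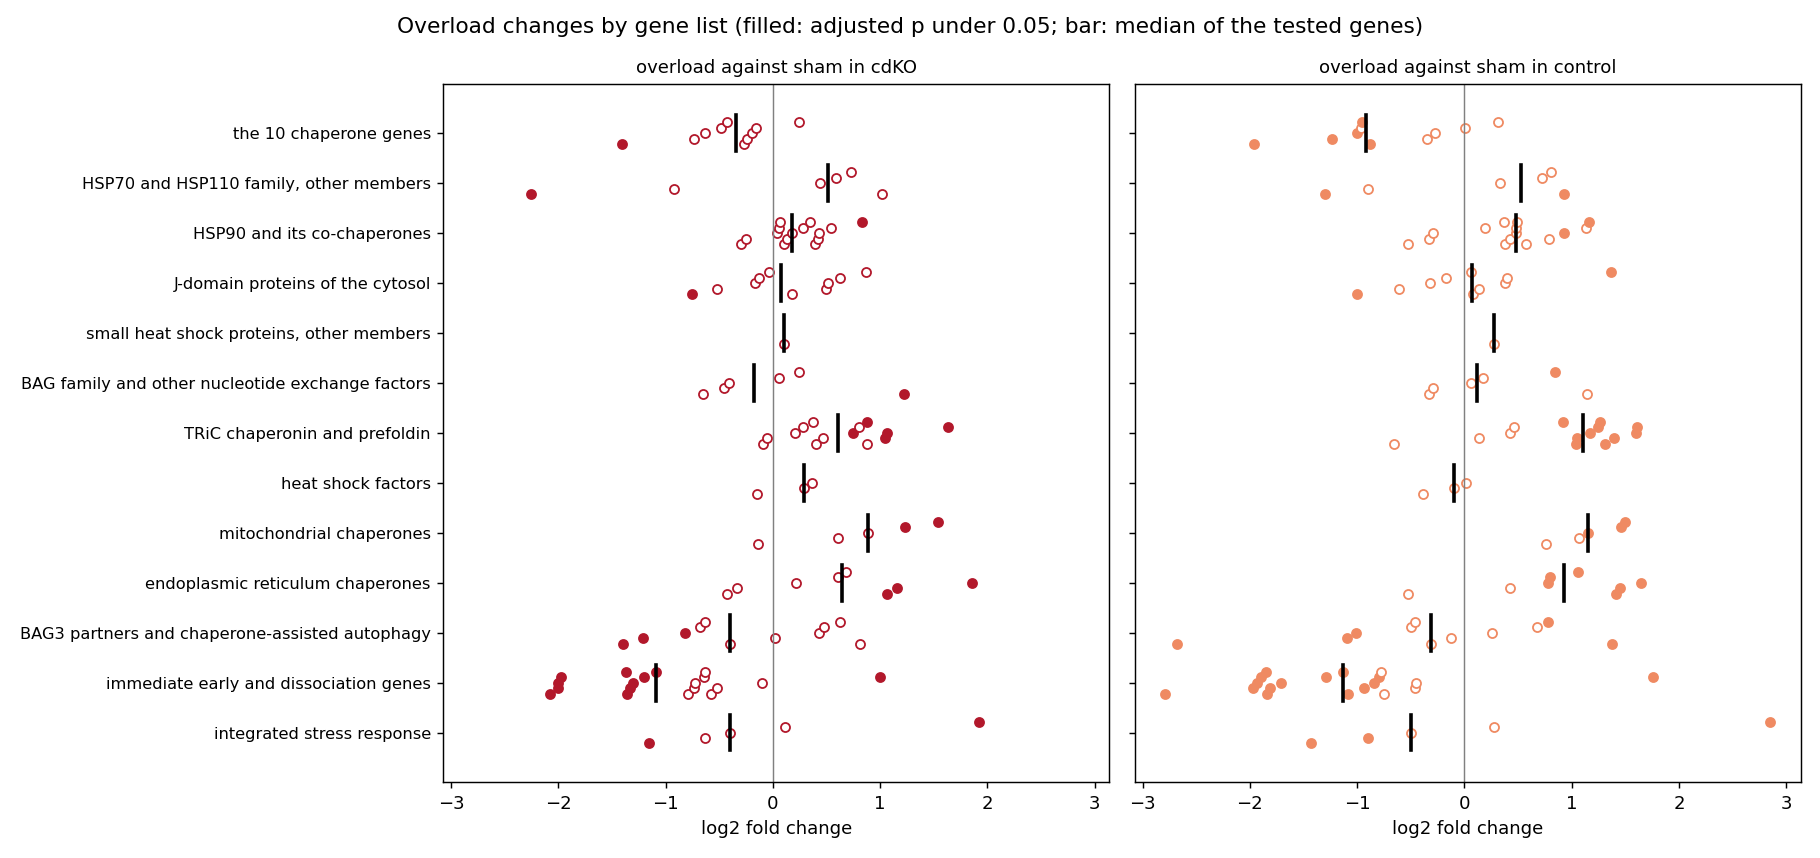
Overload log2 changes (horizontal axes) of the tested genes of each list reported, with cdKO left and control right, filled points at adjusted p under 0.05 and a bar at each list's median; Chac1, with few or no reads in sham libraries, is not drawn. The 10 chaperone genes have medians of -0.35 in cdKO and -0.92 in control, and the chaperonin list 0.61 in cdKO and 1.11 in control.

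Regulators and partners of the set were read in the same way. Of 3 tested genes for heat shock factors and their binding protein 0 passed in either genotype. Hsf1 averaged 26.1 CPM in cdKO overload and 29.5 CPM in cdKO sham, and 26.2 CPM in control overload and 26.7 CPM in control sham. Of 11 partners of BAG3 and genes of its autophagy route, 3 fell and 0 rose in cdKO, and 3 fell and 2 rose in control. Over all genes 6.68% fell and 6.37% rose in cdKO, and 11.0% fell and 10.6% rose in control. Map1lc3b, a protein of autophagosome membranes, fell by 0.82 ± 0.24 in cdKO and by 1.10 ± 0.24 in control (log2, SE). Amotl1, an angiomotin that binds YAP, fell in both genotypes (-1.21 ± 0.25 in cdKO and -1.01 ± 0.26 in control), Amotl2 fell in cdKO (-1.40 ± 0.39), and Flna, a filamin, rose in control (1.37 ± 0.27). Synpo2, which recruits BAG3 to membranes, was among those that fell in control but had only 0 to 14 counts per library.

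The integrated stress response is the pathway that slows translation and induces Atf4 targets. Of its 6 tested genes 2 rose and 1 fell in cdKO, and 2 rose and 2 fell in control. Among all genes 6.37% rose and 6.68% fell in cdKO, and 10.6% rose and 11.0% fell in control. Asns, asparagine synthetase, rose in both genotypes but had as few as 1 count in a library. It averaged 20.3 CPM in cdKO overload and 5.24 CPM in cdKO sham, and 33.4 CPM in control overload and 5.02 CPM in control sham. Chac1, a glutathione-degrading enzyme, also passed in both, with means of 17.6 CPM in cdKO overload and 1.20 CPM in cdKO sham, and 24.1 CPM in control overload and 0.70 CPM in control sham. Ppp1r15a, a phosphatase subunit that ends this response, fell in both (-1.15 ± 0.30 in cdKO and -1.43 ± 0.30 in control, log2, SE). In none of the lists did a gene pass between the genotypes under either load, or in the interaction.

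Likeness of pattern was read as Pearson's r of log2 CPM over the 12 libraries, which share the division into overloaded and sham, so r is a description without a test. Within the set Hspa1a and Hspa1b were the most alike (0.95), followed by Hspb1 and Cryab (0.84) and by Dnajb1 and Hspa1a (0.80). For Hsp90aa1 the closest of the other members was Hspa8, at 0.25. Outside the set the tested gene most like Bag3 was F830016B08Rik (0.96). It was Dleu2 for Hspa1a (0.94), Adgrg6 for Hspa1b (0.94), Pgf for Dnajb1 (0.91) and B2m for Cryab (0.92). For the members that passed in neither genotype it was Pttg1ip for Hspb1 (0.90), Zfp948 for Hspa8 (0.89), Fubp1 for Hsph1 (0.91), Tecr for Hspb8 (0.89) and Uhmk1 for Hsp90aa1 (0.84).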

How the data were processed

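The deposited table holds the authors' raw counts, whole numbers for each gene in each of 12 libraries. Per the labels' protocols, tubes received 1000 sorted Pdgfra-positive cells, and library construction followed CEL-Seq2, a method that tags 3′ ends. The submitters' processing notes name build GRCm38, featureCounts 2.0.1, HISAT2 2.2.1, Trim Galore 0.6.6 and DESeq2 1.26.0. Strand setting, annotation release and molecular identifiers are not stated.

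Tests used edgeR 4.0.16 (R 4.3.3) with filterByExpr, TMM factors and a robust quasi-likelihood fit of 4 group means to all 12 libraries. P-values are two-sided and adjusted by Benjamini-Hochberg over 8161 genes, with a threshold of 0.05, and an SE is the size of the log2 change over the root of F. There were 5 contrasts: overload over sham within a genotype, cdKO over control within a load, and the interaction. The fit was also run on simulated counts in which 200 genes were changed. Its outcome is not given, and no result here rests on it. No pair of libraries within a group matched within sampling noise, so none was treated as a duplicate.

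The 10 genes and the comparison lists were chosen with earlier results of these data known. From each list up to 4 genes with the smallest p among those past the threshold could be named in a comparison, and not all are; for the chaperonin list all that passed are named, and Ier3 was named after its value was seen; genes at a few counts per library are given without a fold change. The result of 1 comparison list is not reported here. Coordinates and transcripts came from GENCODE M21 (GRCm38), and promoter windows from RefSeq. Alternatives were DESeq2 1.42.0, limma 3.58.1 voom with quality weights, other scalings, no filter, a non-robust fit, thinned counts, a replicate block, only the groups compared, summed Hspa1 copies, and libraries left out.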

Additional observations from a re-analysis of the deposited data

How the results depend on the processing

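Of 890 alternative values for single genes and comparisons, 807 kept their direction and their side of the threshold, 14 lost and 11 gained a call, and 58 changed sign, 0 of them past the threshold. The cause was not tested. Another scaling shifted the median of all genes by -0.042 to 0.029 (log2). Libraries held as few as 336437 counts. Thinned to that depth, 1 of the 10 genes passed in cdKO and 5 in control, as many as without thinning, while of all genes 768 passed in cdKO and 1220 in control. Deviations of same-numbered libraries had correlations from -0.23 to 0.27 over 18 pairs, 6 of them over 0.1. Values this weak and mixed cannot settle whether the numbers pair the samples, and the labels do not say. With the replicate block 2 of the 10 genes passed under overload in cdKO (1035 of all genes) and 5 in control (1752 of all genes).

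Of the 10 genes, the number that passed under overload in cdKO was 2 with DESeq2, limma voom, upper-quartile factors, the replicate block and without the overloaded libraries nearest sham, and 1 to 2 with a library left out. In control it was 2 with no filter and 2 to 5 with a library left out. Of all genes, the number that passed under overload was 702 in cdKO with no filter, 423 to 1284 in cdKO with a library left out and 1060 to 2508 in control with a library left out. Between genotypes under overload it was 17 with no filter, 1 with only the groups compared, 21 without the overloaded libraries nearest sham and 1 to 34 with a library left out. In sham it was 2 with DESeq2, limma voom, only the groups compared or without those overloaded libraries, and 0 to 1 with a library left out. The interaction passed for 1 gene with DESeq2, 10 with no filter, 4 without those overloaded libraries and 0 to 1 with a library left out.

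With a library left out, overload changes (log2) whose sign depended on it ran in cdKO from -0.50 to 0.050 for Hspa1b, -0.46 to 0.089 for Hspa8, -0.22 to 0.49 for Hspb8 and -0.62 to 0.23 for Hsph1. In control they ran from -0.50 to 0.16 for Hspb8 and -0.29 to 0.24 for Hsph1. Differences between genotypes under overload ran from -0.023 to 0.33 for Bag3, -0.25 to 0.81 for Hspb1, -0.17 to 0.51 for Hspb8, -0.15 to 0.33 for Hsph1 and -0.25 to 0.19 for Dnajb1. In sham they ran from -0.21 to 0.21 for Bag3, -0.47 to 0.19 for Hspa1a, -0.43 to 0.12 for Hspa1b, -0.14 to 0.34 for Hspb1, -0.46 to 0.18 for Hspb8, -0.18 to 0.66 for Hsph1 and -0.058 to 0.47 for Dnajb1. Interactions ran from -0.028 to 0.37 for Bag3, -0.12 to 0.41 for Hspa8, -0.28 to 0.79 for Hspb1, -0.63 to 0.21 for Hsph1 and -0.50 to 0.019 for Dnajb1. The control overload change of Hsph1 was -0.13 with limma voom, -0.032 with upper-quartile factors, -0.076 on thinned counts, -0.065 with the replicate block, -0.0054 with only the groups compared and -0.32 without the overloaded libraries nearest sham, and its interaction was 0.030 with the replicate block and 0.29 without those libraries. Without them Bag3 differed between genotypes by -0.018 under overload, with an interaction of -0.0038. The overload difference of Dnajb1 between genotypes was -0.031 with DESeq2, -0.032 with DESeq2 size factors, -0.044 with no filter and -0.0027 with only the groups compared. In sham Bag3 differed by 0.035 with no filter and Hspa1a by 0.078 on thinned counts.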
